A study of Mus musculus with 161 samples.

Results

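The tripartite motif (Trim) genes were followed through polarization, depolarization and repolarization of mouse bone marrow-derived macrophages (BMDMs) in culture. Members were the symbols of the bulk RNA-seq table that begin with Trim and a digit, which gave 23 of 8307 genes. The symbol rule itself uses no measured value, although it was set with earlier results of these data known. The table itself holds genes that reached 10 FPKM (fragments scaled to transcript length and library size) in at least 1 library, and the lowest of the genes' highest values was 10.1 FPKM, so Trim genes with little RNA in every library were not analysed here. Trim12a, Trim12c, Trim21, Trim30b, Trim30c, Trim30d, Trim34a, Trim36 and Trim56, 9 of the 23, reached 10 FPKM only in the 88 libraries of cells that had met M1 stimuli, and none of the 9 passed 9.59 FPKM in the other 57 libraries. That floor in part fixed the direction of these 9 members against M0, and the other 14 members are therefore also counted apart.

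The cells were marrow of wild-type C57BL/6J mice aged 6 to 10 weeks, grown in base media with macrophage colony-stimulating factor, which every group received. M1 macrophages were given interferon-γ (IFN-γ) at 25 ng/mL together with lipopolysaccharide (LPS) at 100 ng/mL, M2 macrophages were given 25 ng/mL interleukin-4 (IL-4), and both were collected at 6 times between 1 and 24 h, while M0 macrophages stayed in base media and were collected at 0 h and 24 h. After 24 h other plates were washed and given base media (M1 → M0, M2 → M0), the opposite stimulus (M1 → M2, M2 → M1) or the same one again (M1 kept, M2 kept), with M0 cells carried along, for up to a further 72 h. Bulk RNA-seq libraries covered 48 conditions, of which 45 had 3 libraries, 1 had 2 and 2 had 4. ATAC-seq, which reads chromatin accessibility, held 3 libraries each of 24 h M1, 72 h M1 → M0 and 0 h M0, and single-cell RNA-seq held 1 library for each of 7 conditions. The macrophages were unsorted marrow cultures, and whether marrow of several mice was pooled is not given in the sources used here.

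TRIM proteins share a RING domain, B-box domains and a coiled coil, followed by a variable end that sets the target, and many are E3 ubiquitin ligases, enzymes that attach ubiquitin to other proteins. Many TRIM genes are induced by interferons and act in antiviral defence, either on viruses themselves or on the sensing pathways that lead to interferon. LPS acts through TLR4, which switches on NF-κB and the type I interferon genes. IL-4 acts through STAT6. Interferon-induced genes often carry an interferon-stimulated response element (ISRE), a site of complexes that hold IRF proteins.

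The measured members were grouped by position and by role. A cluster on chromosome 7 held 7 measured genes of 11 listed, between 104244457 (the start of Trim34a) and 104507849 (the end of Trim30d) in GRCm38: Trim34a, Trim12a, Trim12c, Trim30b, Trim30c, Trim30a and Trim30d. Trim12a and Trim12c are mouse relatives of the primate restriction factor TRIM5, and Trim30a is known in mouse to restrain NF-κB signalling. Genes of this cluster are close copies of each other, so how reads were shared between Trim30a, Trim30b, Trim30c and Trim30d, or between Trim12a and Trim12c, is uncertain. Of 10 listed regulators of nucleic acid sensing and interferon signalling, 7 were measured, among them Trim21 (chromosome 7, 102557921 to 102565486), Trim25 (chromosome 11, 88999376 to 89020293), Trim14 (chromosome 4, 46493781 to 46536141) and Trim56 (chromosome 5, 137105644 to 137116209). Trim28, on chromosome 7 from 12999114 to 13031035, was the measured gene of 4 listed TIF1 chromatin cofactors.

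The promoters shown are those of 5 members that changed with M1 stimuli and hold a match to the ISRE core. Trim26 and Trim34a met the same terms and are not printed. RefSeq promoters (GRCm38.p6, 250 bases before to 50 after a start) were searched for 17 of the 23 members. The other 6, Trim36 among them, were not searched. An ISRE core, searched on both strands as the letters GAAA, any 2 bases and GAAA again, was present in promoters of 7 of the 17 (Trim12a, Trim12c, Trim21, Trim26, Trim30a, Trim30d and Trim34a), against 3.99% of 27025 genes with a promoter entry. The entries of Trim30b and Trim30c held no ISRE match. The Trim30b entry (chr7:104358597-104358896) lay apart from its accessible start site (chr7:104369527-104370919), whose bases were not searched. A second pattern, GAS, was searched as the letters TTCNNNGAA, where N is any base. It was present in 1 of the 17 (Trim30c), against 9.55% of genes. A match is a description of the letters and not a bound site. In the sequences, written 5′ to 3′ on the gene's strand, capitals mark the matched letters of the ISRE core. The windows are chr7:104465144-104465443 for Trim30a (minus strand, the outer of its 2 entries), chr7:104507800-104508099 for Trim30d (minus), chr7:104315446-104315745 for Trim12a (minus), chr7:104353300-104353599 for Trim12c (minus) and chr7:102565433-102565732 for Trim21 (minus).
Trim30a: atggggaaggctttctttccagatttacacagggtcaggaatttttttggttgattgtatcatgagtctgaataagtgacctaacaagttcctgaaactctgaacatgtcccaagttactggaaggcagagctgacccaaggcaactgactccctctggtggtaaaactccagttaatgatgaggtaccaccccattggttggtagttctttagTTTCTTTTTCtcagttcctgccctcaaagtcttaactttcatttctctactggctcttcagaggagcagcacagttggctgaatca
Trim30d: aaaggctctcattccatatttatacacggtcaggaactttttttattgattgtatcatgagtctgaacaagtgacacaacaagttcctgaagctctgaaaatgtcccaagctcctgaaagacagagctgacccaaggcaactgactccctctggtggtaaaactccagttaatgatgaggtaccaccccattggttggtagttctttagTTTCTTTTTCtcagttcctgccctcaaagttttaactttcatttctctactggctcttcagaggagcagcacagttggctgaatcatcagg
Trim12a: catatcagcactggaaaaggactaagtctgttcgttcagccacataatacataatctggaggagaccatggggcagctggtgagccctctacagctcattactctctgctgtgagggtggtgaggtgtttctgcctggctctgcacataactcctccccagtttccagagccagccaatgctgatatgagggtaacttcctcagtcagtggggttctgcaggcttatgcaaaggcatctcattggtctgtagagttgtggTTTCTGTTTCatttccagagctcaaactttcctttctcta
Trim12c: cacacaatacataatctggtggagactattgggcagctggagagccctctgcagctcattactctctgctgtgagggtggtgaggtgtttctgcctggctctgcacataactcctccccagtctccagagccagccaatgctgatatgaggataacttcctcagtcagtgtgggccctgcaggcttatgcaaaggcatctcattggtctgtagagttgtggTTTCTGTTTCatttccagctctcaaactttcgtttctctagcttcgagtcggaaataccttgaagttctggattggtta
Trim21: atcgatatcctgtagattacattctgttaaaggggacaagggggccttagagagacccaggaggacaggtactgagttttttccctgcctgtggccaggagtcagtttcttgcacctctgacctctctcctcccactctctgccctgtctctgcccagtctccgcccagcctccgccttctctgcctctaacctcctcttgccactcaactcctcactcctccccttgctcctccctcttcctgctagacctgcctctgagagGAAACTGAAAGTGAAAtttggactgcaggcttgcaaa
The matched letters began 36 bases before the start in Trim30a, 41 before it in Trim30d and 29 before it in Trim12c. In Trim12a and Trim34a they began at base 11 after the start, and in Trim21 at bases 14 and 20, where 2 matches overlap. In Trim26 they began at bases -160 and -154 relative to the start. The longest identical run was 118 bases between the Trim30a and Trim30d windows and 71 bases between Trim12a and Trim12c. All 5 windows shown lay whole inside deposited ATAC sites, whereas the entry of Trim30b lay outside any deposited site.

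The macrophage identity of the cultures was checked on 7 measured genes of 8 listed macrophage markers, whose summed level was 4889 to 6415 FPKM in 24 h M1 and 9061 to 11109 FPKM in 24 h M0 libraries. Markers of other cells were present at lower levels and differed between groups. Ighm, a B cell gene, was at 0.47 to 1.16 FPKM in 24 h M1 and 65.1 to 90.9 FPKM in 24 h M0 libraries, and the summed neutrophil markers at 20.7 to 40.0 FPKM against 21.7 to 313 FPKM. The part of these cells in the Trim results was not tested, and in bulk samples fewer cells of a type and less RNA per cell cannot be told apart. Median log2(FPKM + 1) over all genes was 4.21 in 24 h M1 and 4.09 in 24 h M0 macrophages, and moving both to the same median ended the calls of Trim8 and Trim11 in that comparison. Bulk depth is unknown from FPKM alone, ATAC libraries held 1730488 to 9354620 counts in sites, and single-cell libraries held 5725353 to 8761151 UMIs (unique molecular identifiers).

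M1 stimuli raised the 7 cluster genes and 6 of the 7 measured regulators of sensing and interferon signalling at 24 h, and lowered Trim47, Trim59, Trim28 and Trim36. Against 24 h M0, 14 of the 23 members were higher and 6 were lower in 24 h M1 macrophages, in limma fits on log2(FPKM + 1) over all genes with Benjamini-Hochberg adjusted p under 0.05, where 60.5% of all genes passed in either direction (35.4% higher, 25.2% lower). The median difference was 0.62 on the log2 scale over the 23 members and 0.095 over all genes. Of the 14 members that reached the floor without M1 stimuli, 6 were higher, 5 lower and 3 not called, and of the other 9, 8 were higher and 1 lower. Trim3, Trim35 and Trim41 were not called, and Trim35 was the member of the 23 whose 24 h M1 and 24 h M0 libraries overlapped.

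**Figure D1:**
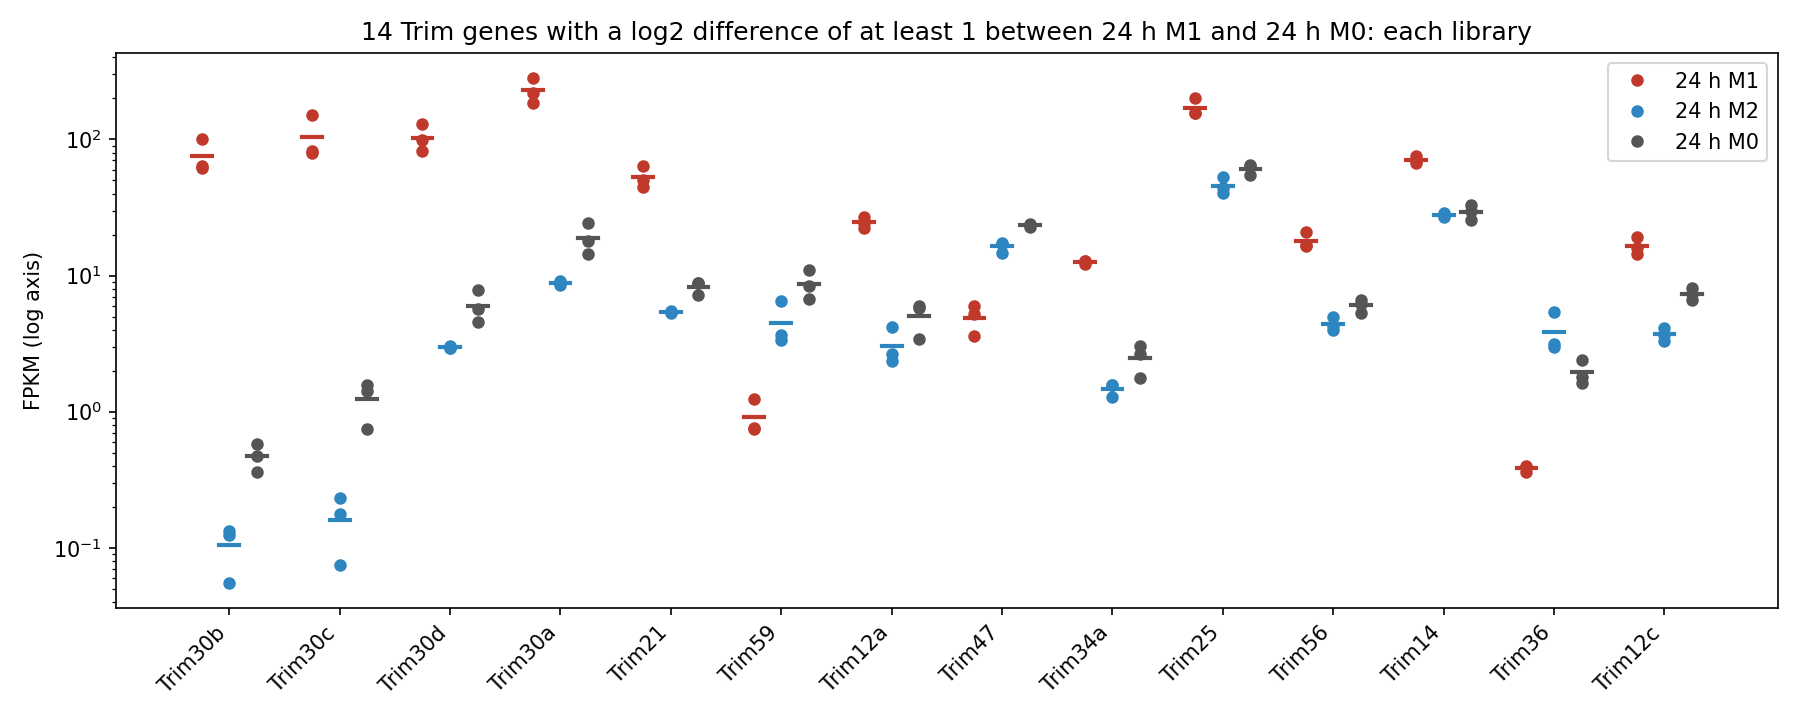
FPKM on a log axis in each library of 24 h M1, 24 h M2 and 24 h M0 macrophages for the 14 members with an adjusted p under 0.05 and a log2 difference of at least 1 in size in 24 h M1 against 24 h M0. Each point is 1 library; the M1 points of Trim30b (61.1 to 101 FPKM) lie above its M0 points (0.36 to 0.581 FPKM), and those of Trim47 (3.59 to 5.95 FPKM) below its M0 points (22.8 to 23.7 FPKM).

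The 4 Trim30 genes changed most. Trim30b was at 101, 63.3 and 61.1 FPKM in 24 h M1 libraries, against 0.473, 0.581 and 0.36 FPKM in 24 h M0 libraries, a log2 difference of 5.66 (SE 0.17, limma adjusted p = 1.19e-53). Trim30c was at 150, 79.7 and 81.7 FPKM in 24 h M1, against 1.41, 1.58 and 0.747 FPKM in 24 h M0, a log2 difference of 5.50 (SE 0.34, adjusted p = 2.59e-28). For both genes every M1 library lay far above every M0 library, which were near the low end of the table, and adding 1 FPKM before the logarithm understates such changes. Trim30d was at 129, 82.1 and 98.3 FPKM in 24 h M1, against 7.82, 5.63 and 4.54 FPKM in 24 h M0, a log2 difference of 3.90 (SE 0.19, adjusted p = 9.81e-36). Trim30a, with the highest level of the 4, was at 281, 186 and 220 FPKM in 24 h M1, against 24.1, 17.9 and 14.4 FPKM in 24 h M0, a log2 difference of 3.55 (SE 0.22, adjusted p = 4.43e-28). Replicate 1 was the highest M1 library of all 4 genes.

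The other cluster genes were also higher with no overlap. Trim12a was at 26.8, 22.5 and 24.5 FPKM in 24 h M1, against 6.01, 3.43 and 5.76 FPKM in 24 h M0 (log2 difference 2.1, SE 0.16, limma adjusted p = 1.19e-21). Trim12c was at 19.3, 14.3 and 15.8 FPKM in 24 h M1, against 8.08, 7.32 and 6.61 FPKM in 24 h M0, with a smaller log2 difference of 1.06 (SE 0.14, adjusted p = 3.8e-10). Trim34a was at 12.9, 12.1 and 12.8 FPKM in 24 h M1, against 3.04, 1.76 and 2.66 FPKM in 24 h M0 (log2 difference 1.98, SE 0.15, adjusted p = 6.26e-22).

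Among regulators of sensing and interferon signalling, Trim21 changed most. It encodes a cytosolic Fc receptor and E3 ligase, and was at 63.5, 44.5 and 50.4 FPKM in 24 h M1, against 8.84, 8.77 and 7.18 FPKM in 24 h M0 (log2 difference 2.53, SE 0.15, limma adjusted p = 2.8e-30). Trim25, the E3 ligase known for ubiquitinating the RNA sensor RIG-I, was already abundant, at 201, 155 and 157 FPKM in 24 h M1, against 54.4, 64.7 and 63.6 FPKM in 24 h M0 (log2 difference 1.47, SE 0.18, adjusted p = 8.79e-12). The libraries of both genes were apart. Trim56, an antiviral E3 ligase, was at 20.8, 16.4 and 16.7 FPKM in 24 h M1, against 6.65, 5.33 and 6.18 FPKM in 24 h M0 (log2 difference 1.43, SE 0.15, adjusted p = 2.89e-15). Trim14, which lacks a RING and acts as an adaptor beside MAVS, was at 76.1, 66.6 and 69.6 FPKM in 24 h M1, against 32.9, 25.7 and 29.9 FPKM in 24 h M0 (log2 difference 1.24, SE 0.14, adjusted p = 1.22e-12). Changes of Trim26 (26.7 FPKM in 24 h M1 and 17.1 FPKM in 24 h M0, log2 difference 0.62), Trim8 (40.1 and 29.7 FPKM, 0.41) and Trim11 (13.1 and 10.6 FPKM, 0.28) were smaller, and the calls of Trim8 and Trim11 were lost when single libraries were left out.

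The members that were lower belong to other roles. Trim59 was at 1.23, 0.762 and 0.749 FPKM in 24 h M1, against 11, 8.41 and 6.74 FPKM in 24 h M0 (log2 difference -2.33, SE 0.23, limma adjusted p = 1.42e-15). Trim47 was at 3.59, 5.19 and 5.95 FPKM in 24 h M1, against 23.7, 23.5 and 22.8 FPKM in 24 h M0 (log2 difference -2.06, SE 0.23, adjusted p = 1.55e-13). Trim36, an E3 ligase associated with microtubules, was at 0.4, 0.361 and 0.395 FPKM in 24 h M1, against 2.41, 1.8 and 1.62 FPKM in 24 h M0 (log2 difference -1.08, SE 0.21, adjusted p = 3.11e-06). In all 3 genes the groups were apart, although Trim36 had been induced earlier in the same course. Trim28, known as KAP1, the corepressor recruited by KRAB zinc-finger proteins to silence retroelements, was at 29, 29.8 and 30.8 FPKM in 24 h M1, against 42, 53.7 and 47.1 FPKM in 24 h M0 (log2 difference -0.65, adjusted p = 3.67e-07). Trim27 (9.77 FPKM in 24 h M1 and 15.1 FPKM in 24 h M0, log2 difference -0.59) and Trim44 (10.2 and 15.6 FPKM, -0.56) were also lower.

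The hours of the M1 course separated members that a 24 h comparison holds together. An F-test across the hours, 0 h M0 included, called 23 of 23 members, where 91.3% of all genes were called. At 1 h, 4 members (Trim21, Trim25, Trim30b and Trim30c) were higher than in 0 h M0 and 0 lower, where 4.85% of all genes were called (4.32% higher, 0.530% lower), and all 4 calls were lost without replicate 1 of 1 h M1. Trim30c was at 22.96 FPKM in that library and at 0.937 and 0.536 FPKM in the other 1 h M1 libraries, against 1.11, 0.581 and 0.633 FPKM in 0 h M0, so that only replicate 1 stood above the 0 h level. At 2 h, 12 members were higher and 8 lower, where 42.6% of all genes were called (24.0% higher, 18.7% lower). Of the 14 members that reach the floor without M1 stimuli, 3 were higher and 8 lower at 2 h. At 4 h 14 members were higher and 5 lower (62.9% of all genes called, 35.3% higher and 27.6% lower), and the counts were again 14 and 5 at 6 h (67.3%, 38.4% and 28.9%) and 12 h (64.4%, 37.1% and 27.3%). At 24 h they were 13 and 7 (61.2%). Of the 14 members that reach the floor without M1 stimuli, 5 were higher and 5 lower at 4 h. Their counts were 6 and 5 at 12 h, and 5 and 6 at 24 h. At 6 h the median log2 difference was 1.60 over the members and 0.11 over all genes, and of the 14 members that reach the floor without M1 stimuli 5 were higher and 5 lower. Summed neutrophil markers were at 288 to 1203 FPKM in 6 h M1 and 952 to 2704 FPKM in 0 h M0 libraries, and their part in the course was not tested.

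**Figure D2:**
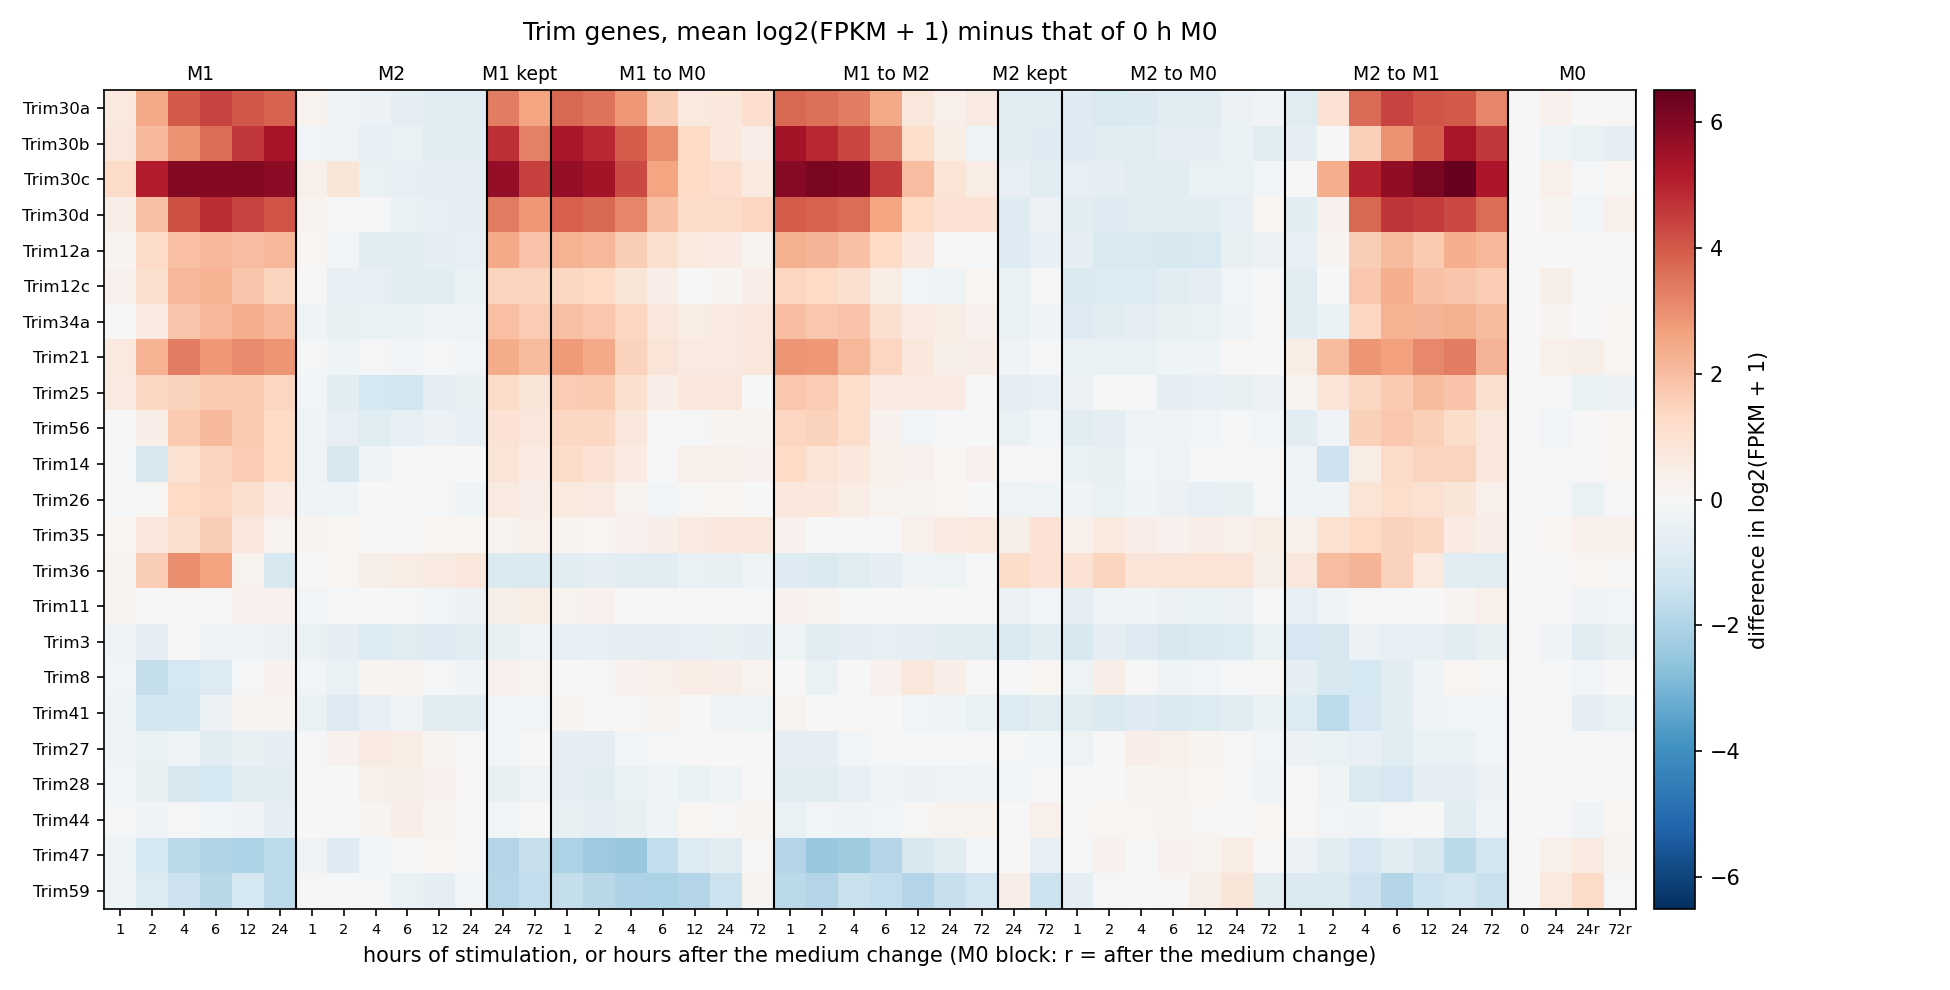
Mean log2(FPKM + 1) of the 23 members (rows) in the 48 conditions (columns, grouped by treatment and ordered by hour) minus the 0 h M0 mean, as colour. The M1, M2 → M1 and M1 kept blocks are high for the chromosome 7 cluster and Trim21, low for Trim47 and Trim59, and Trim36 is high at 4 h and 6 h of M1 (22.9 and 17.0 FPKM) and low at 24 h (0.385 FPKM).

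Trim30c was the fastest of the cluster genes, with means of 0.774 FPKM at 0 h, 8.14 at 1 h, 59.5 at 2 h and 109 FPKM at 4 h of M1, after which it stayed between 104 and 111 FPKM. Its mean at 1 h was raised by replicate 1 alone. Trim30a averaged 15.2 FPKM at 0 h, 88.9 at 2 h, 335 at 6 h and 229 FPKM at 24 h, and Trim30d 5.18, 22.4, 168 and 103 FPKM at the same hours. Both were thus highest at 6 h. Trim30b climbed throughout, with 0.825 FPKM at 0 h, 6.88 at 2 h, 21.5 at 6 h, 43.1 at 12 h and 75.2 FPKM at 24 h, and its 24 h M1 level was above its 4 h M1 level (log2 difference 2.41, limma adjusted p = 1.51e-24). Of the 23 members, 6 were higher and 9 lower at 24 h than at 4 h of M1, where 67.1% of all genes were called (32.4% higher, 34.7% lower).

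Trim36 showed a pulse. It was at 32.1, 18.2 and 18.5 FPKM in 4 h M1, against 2.26, 1.96 and 1.43 FPKM in 0 h M0, a log2 difference of 3.02 (limma adjusted p = 1.88e-25). Its means were 17.0 FPKM at 6 h, 2.40 at 12 h and 0.385 FPKM at 24 h of M1, and 24 h M1 was lower than 4 h M1 by a log2 difference of -4.06 (adjusted p = 4.56e-34). Trim35, which is known to bind the pyruvate kinase PKM2, was highest at 6 h of M1, at 107, 89.5 and 83.3 FPKM, against a 0 h M0 mean of 30.2 FPKM, and was back to a mean of 35.0 FPKM at 24 h. Trim26 peaked at a mean of 50.9 FPKM at 6 h, against 18.4 FPKM at 0 h.

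Another pattern was an early dip followed by recovery. Trim8, whose protein binds SOCS1, averaged 33.1 FPKM at 0 h, 10.7 at 2 h, 17.3 at 6 h and 40.1 FPKM at 24 h of M1, and 2 h M1 differed from 0 h M0 by a log2 difference of -1.56 (limma adjusted p = 1.51e-12). Trim41 averaged 31.2, 13.9, 23.8 and 35.9 FPKM at the same hours, with a 2 h log2 difference of -1.17. Trim14 was lower at 2 h, at 13.4 against 28.7 FPKM at 0 h (log2 difference -1.04, adjusted p = 1.2e-09), and higher from 4 h on, reaching a mean of 91.9 FPKM at 12 h. The dip of Trim14 at 2 h was also present with IL-4, at 13.1 FPKM in 2 h M2 (log2 difference -1.06 against 0 h M0, adjusted p = 4.26e-09), whereas Trim8, at 25.5 FPKM in 2 h M2, was not called there. Trim28 fell to a mean of 23.6 FPKM at 4 h of M1, against 49.1 FPKM at 0 h (log2 difference -1.02, adjusted p = 6.13e-14), and Trim47 and Trim59 kept low levels from 4 h on, at 3.70 to 4.91 FPKM and 0.740 to 1.86 FPKM.

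IL-4 lowered the cluster genes that M1 stimuli raised. Against 24 h M0, 1 member (Trim36) was higher and 13 were lower in 24 h M2 macrophages, where 33.6% of all genes were called (18.5% higher, 15.1% lower), and the median log2 difference was -0.41 over the members and 0.025 over all genes. The 13 comprised the 7 cluster genes and Trim3, Trim11, Trim21, Trim41, Trim56 and Trim59, and 5 of them were among the 14 members that reach the floor without M1 stimuli. Trim30a was at 9.09, 8.81 and 8.56 FPKM in 24 h M2, against 24.1, 17.9 and 14.4 FPKM in 24 h M0 (log2 difference -0.98, limma adjusted p = 0.000177). Trim12c was at 4.15, 3.65 and 3.31 FPKM in 24 h M2, against 8.08, 7.32 and 6.61 FPKM in 24 h M0 (log2 difference -0.83, adjusted p = 1.89e-06). In both genes the groups did not overlap. Trim30d (2.96 and 6.00 FPKM, log2 difference -0.79), Trim30c (0.161 and 1.24 FPKM, -0.93) and Trim30b (0.105 and 0.471 FPKM, -0.41) were lower too, the last 2 at levels where little RNA was measured in either group. Trim36 was at 5.4, 3.16 and 3 FPKM in 24 h M2, against 2.41, 1.8 and 1.62 FPKM in 24 h M0 (log2 difference 0.70, adjusted p = 0.00481). Without replicate 1 of 24 h M0 the count of calls was 9, and Trim12a, Trim30b, Trim30c, Trim34a and Trim56 were lost. The call of Trim36 was lost in at least 1 fit that left out a library.

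Over the M2 hours the F-test called 17 of 23 members, where 63.9% of all genes were called. At 1 h limma called 0 members against 0 h M0 (1.16% of all genes), with 4 at an unadjusted p under 0.05, and at 2 h 0 were higher and 8 lower (21.9%, with 12.6% higher and 9.29% lower). At 4 h 2 members were higher and 8 lower (40.3%, with 22.5% and 17.8%), at 6 h 3 and 9 (44.5%, with 25.6% and 19.0%), at 12 h 2 and 10 (38.3%, with 20.8% and 17.4%) and at 24 h 1 and 10 (32.4%). Trim25 showed the opposite course to that with M1 stimuli, at a mean of 27.6 FPKM at 6 h of M2, against 63.9 FPKM at 0 h (log2 difference -1.19, limma adjusted p = 2.64e-08), and returned part of the way to 45.7 FPKM at 24 h. Trim27, Trim28 and Trim44 were the 3 members higher at 6 h of M2, Trim28 at 65.0 FPKM against 49.1 FPKM at 0 h. The 24 h count was 6 in all without replicate 1 of 0 h M0, and the F-test called 11 without replicate 2. In base media, limma called 0 of 23 members between 24 h M0 and 0 h M0 (1.64% of all genes called), with 3 at an unadjusted p under 0.05.

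When M1 cells were washed and returned to base media, the induced members fell within hours. Against 24 h M1, limma called 0 members 1 h after the change (0.0963% of all genes called) and 0 at 2 h (3.09%), with 0 and 6 at an unadjusted p under 0.05, and 1 was higher and 11 lower at 4 h (19.8%, with 9.21% higher and 10.6% lower). At 6 h 2 members were higher and 13 lower (30.9%, with 13.8% and 17.1%), and at 12 h 6 and 12 (40.4%, with 19.9% and 20.5%). Of the 14 members that reach the floor without M1 stimuli, 1 was higher and 3 lower at 4 h. Their counts were 2 and 5 at 6 h, and 5 and 4 at 12 h. Of its 24 h M1 mean, Trim30c had 32.0% left at 4 h, 9.29% at 6 h and 3.33% at 12 h of M1 → M0, and Trim30a had 49.1%, 21.1% and 10.7%. Trim12a kept more, with 66.6%, 44.5% and 34.01%, and Trim25 kept 77.6%, 51.4% and 61.9%. These genes started from different heights, so the shares are not rates of decay. M1 kept cells were first collected 24 h after the change. Up to 12 h the removal of stimuli therefore cannot be told apart from the wash and the added time.

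At 24 h after the change, 2 members (Trim35 and Trim47) were higher and 13 lower in M1 → M0 than in M1 kept macrophages, where 23.8% of all genes were called (10.4% higher, 13.4% lower). Of the 14 members that reach the floor without M1 stimuli, 2 were higher and 5 lower. Trim30c averaged 2.83 ± 0.894 FPKM in M1 → M0 and 94.8 ± 27.1 FPKM in M1 kept (SD, n = 3 each, log2 difference -4.64, limma adjusted p = 1.27e-22). Trim30a averaged 25.5 FPKM in M1 → M0 and 160 FPKM in M1 kept (log2 difference -2.63), and Trim21 10.2 and 37.9 FPKM (-1.82). At 72 h, 5 members (Trim28, Trim35, Trim36, Trim47 and Trim59) were higher and 12 lower in M1 → M0 than in M1 kept, where 42.1% of all genes were called (19.4% higher, 22.8% lower). Of the 14 members that reach the floor without M1 stimuli, 4 were higher and 4 lower. Of the other 9, 1 was higher and 8 lower. Trim47 averaged 19.6 FPKM in M1 → M0 and 5.73 FPKM in M1 kept (log2 difference 1.58) and Trim28 51.9 and 38.1 FPKM, so both of these genes were higher once the stimuli were gone. Trim30b was lower late in cells kept in M1 stimuli as well, averaging 17.0 FPKM in M1 kept 72 h after the change and 75.2 FPKM in 24 h M1 (log2 difference -2.1, adjusted p = 1.0e-19).

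The return was not complete for part of the family. Set against M0 macrophages of the same age, 7 members were higher and 0 lower 72 h after the removal of M1 stimuli, where 17.9% of all genes were called (10.7% higher, 7.19% lower), and the median log2 difference was 0.28 over the members and 0.051 over all genes. Of the 7, 5 were among the 9 members that reach the floor only with M1 stimuli. Trim30a was at 34.9, 28.1 and 37.6 FPKM in 72 h M1 → M0, against 20, 20.9, 12.5 and 13.2 FPKM in 72 h M0 (log2 difference 0.99, limma adjusted p = 0.000108). Trim30d was at 17.3, 12.8 and 16 FPKM in 72 h M1 → M0, against 7.74, 7.3, 7.16 and 4.73 FPKM in 72 h M0 (log2 difference 1.09, adjusted p = 8.3e-07). Trim30b, at 1.95, 1.05 and 1.51 FPKM in 72 h M1 → M0, was above 72 h M0, at 0.194, 0.181, 0.279 and 0.198 FPKM (log2 difference 1.03, adjusted p = 1.29e-07). Trim21 (11.1 and 6.82 FPKM, log2 difference 0.64), Trim34a (3.93 and 2.41 FPKM, 0.54), Trim35 (51.4 and 38.0 FPKM, 0.43) and Trim12c (7.59 and 5.62 FPKM, 0.38) made up the 7, and in none of the 7 did the groups overlap. Moving all libraries to 1 median ended the call of Trim12c, and without replicate 1 in every condition the count was 11. Beside these values, summed macrophage markers were at 4043 to 6209 FPKM in 72 h M1 → M0 and 8093 to 10377 FPKM in 72 h M0, and 2 measured of 4 fibroblast markers at 0.30 to 0.94 FPKM and 18.2 to 128 FPKM. Ighm was at 0.882 to 1.57 FPKM in 72 h M1 → M0 and 56.0 to 79.9 FPKM in 72 h M0, and the part of these differences in the Trim values was not tested.

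**Figure D3:**
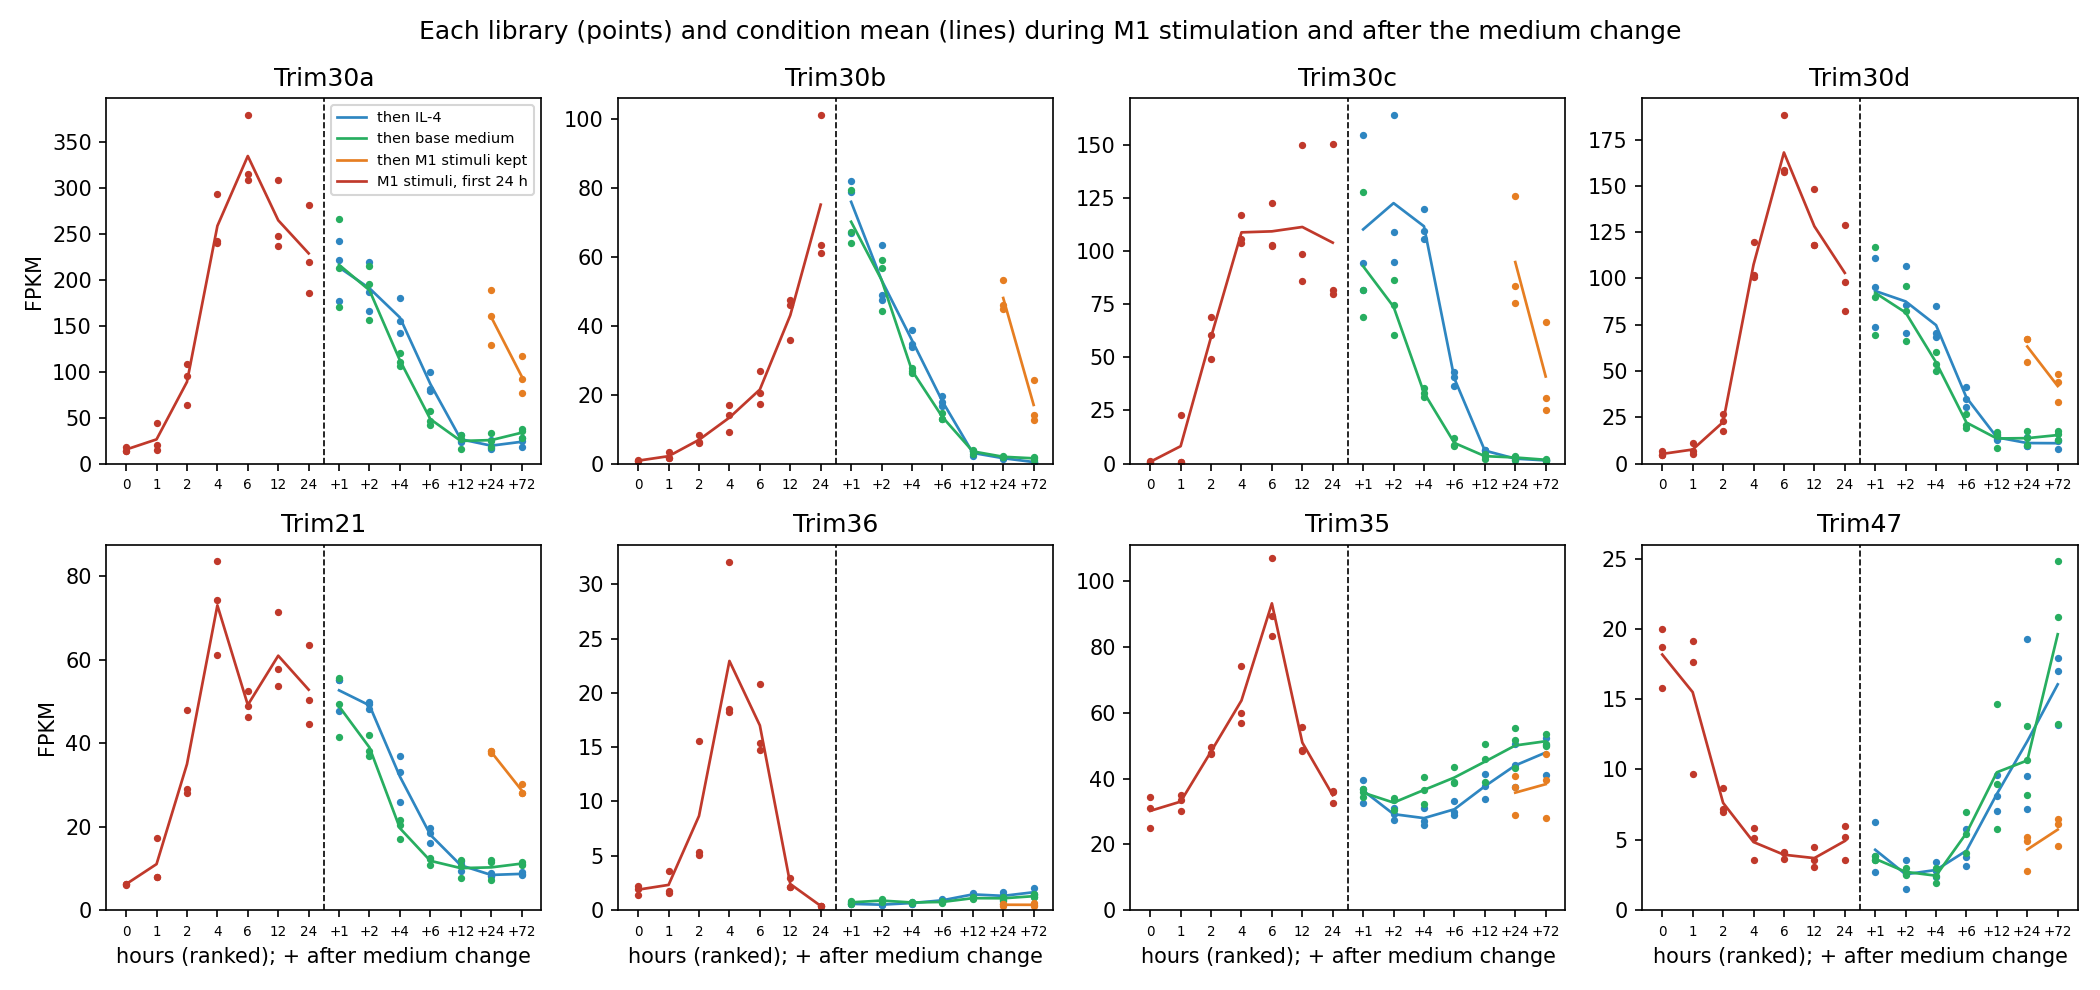
FPKM in each library over the first 24 h of M1 stimuli and after the change to IL-4, to base media or to fresh M1 stimuli, in 8 panels (Trim30a, Trim30b, Trim30c, Trim30d, Trim21, Trim36, Trim35 and Trim47), with hours as ranks. After the change, Trim30c stayed at 112 FPKM at 4 h with IL-4 and was at 33.3 FPKM in base media, while M1 kept cells held 94.8 FPKM at 24 h.

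Trim30c and a few other members fell later when M1 stimuli were replaced with IL-4 than when they were replaced with base media. An F-test over the matched hours called 10 of 23 members, where 23.4% of all genes were called, and this test was added after values had been seen. The F-test called 2 members without replicate 2 and 2 without replicate 3. At 1 h and 2 h after the change limma called 0 members (0.0361% and 1.43% of all genes called), with 0 and 3 at an unadjusted p under 0.05. At 4 h Trim30c was at 109, 106 and 120 FPKM in M1 → M2, against 31.1, 33 and 35.7 FPKM in M1 → M0 (log2 difference 1.72, SE 0.34, limma adjusted p = 7.74e-05), where 6.93% of all genes were called. At 6 h it was at 36.3, 40.5 and 43.1 FPKM in M1 → M2, against 8.84, 8.36 and 11.8 FPKM in M1 → M0 (log2 difference 1.95, adjusted p = 4.16e-06), where 9.46% of all genes were called. The IL-4 libraries thus held the 24 h M1 level of Trim30c for 4 h and lost it afterwards.

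Trim21 was at 25.8, 37 and 33.2 FPKM in 4 h M1 → M2, against 16.9, 21.5 and 20.4 FPKM in 4 h M1 → M0 (log2 difference 0.67, limma adjusted p = 0.000428). At 6 h Trim30a was at 79, 81.1 and 99.9 FPKM in M1 → M2, against 45.8, 41.5 and 57.7 FPKM in M1 → M0 (log2 difference 0.83, adjusted p = 0.00467), and Trim30d averaged 35.6 and 22.1 FPKM (0.67, adjusted p = 0.0106). Trim35 moved the other way, at a mean of 30.7 FPKM in 6 h M1 → M2 and 40.3 FPKM in 6 h M1 → M0 (log2 difference -0.38). Without replicate 3 of 6 h M1 → M2, 2 of the 5 calls at 6 h were left, Trim30c and Trim21. At 12 h limma called 0 members (11.8% of all genes called), with 2 at an unadjusted p under 0.05. At 24 h Trim12a and Trim12c were lower with IL-4 (10.2%), and at 72 h Trim28, Trim30b and Trim59 were lower (16.9%), Trim30b at 0.423 FPKM in M1 → M2 and 1.505 FPKM in M1 → M0.

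Cells first held in IL-4 for 24 h had lower levels of the cluster genes in the first hours of M1 stimuli than cells given M1 stimuli directly. At 1 h, 1 member (Trim36) was higher and 12 lower in M2 → M1, where 37.3% of all genes were called (19.9% higher, 17.3% lower). At 2 h, 2 members (Trim8 and Trim35) were higher and 12 lower in M2 → M1 than in M1, where 32.5% of all genes were called (17.8% higher, 14.6% lower), and 5 of the 12 were among the 14 members that reach the floor without M1 stimuli. Trim30c was at 9.97, 5.94 and 8.19 FPKM in 2 h M2 → M1, against 60.5, 68.8 and 49.4 FPKM in 2 h M1 (log2 difference -2.76, limma adjusted p = 5.59e-11). Trim30b was at 0.858, 0.624 and 1.04 FPKM in 2 h M2 → M1, against 5.87, 8.4 and 6.37 FPKM in 2 h M1 (log2 difference -2.09, adjusted p = 6.71e-20). Trim30a was at 41.9, 21.4 and 30.7 FPKM in 2 h M2 → M1, against 108, 94.9 and 63.5 FPKM in 2 h M1 (log2 difference -1.49, adjusted p = 2.27e-08). None of the 3 overlapped. The levels before M1 stimuli differed as well, Trim30a averaging 8.82 FPKM in 24 h M2 and 15.2 FPKM in 0 h M0, and whether the fold rise from these levels differed was not tested. Trim30d (log2 difference -1.64), Trim12c (-1.08), Trim12a (-1.06), Trim34a (-0.97) and Trim56 (-0.67) were lower as well, and without replicate 3 of 2 h M1 the number of calls was 9. Other cells differed between these groups. Summed neutrophil markers (8 of 8 measured) were at 10.2 to 103 FPKM in 2 h M2 → M1 and 937 to 5411 FPKM in 2 h M1 libraries, and macrophage markers at 4532 to 4969 FPKM and 10274 to 11480 FPKM, and their part in the Trim differences was not tested.

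The gap narrowed with time. At 4 h, 1 member was higher and 9 lower in M2 → M1, where 25.0% of all genes were called. At 6 h the counts were 1 and 2 (18.6%, with 8.92% and 9.64%), at 12 h 2 and 2 (22.2%, with 12.8% and 9.39%) and at 24 h 1 and 0 (18.9%). The 4 h count was 6 without replicate 2 and 5 without replicate 3 of 4 h M1. Trim30b averaged 4.39 FPKM in 4 h M2 → M1 and 13.3 FPKM in 4 h M1 (log2 difference -1.39, limma adjusted p = 3.29e-12), 12.8 and 21.5 FPKM at 6 h, and 26.3 and 43.1 FPKM at 12 h. The pulse of Trim36 was smaller, at 12.2 ± 1.45 FPKM in 4 h M2 → M1 (SD, n = 4) and 22.9 ± 7.91 FPKM in 4 h M1 (SD, n = 3, log2 difference -0.82), and at 6.96 and 17.0 FPKM at 6 h (-1.16). Trim47 stayed higher in M2 → M1, at 10.8 FPKM in 6 h M2 → M1 and 3.94 FPKM in 6 h M1 (log2 difference 1.24). An F-test over the matched hours called 19 of 23 members, where 64.1% of all genes were called, and the comparison also differs in the days cells had been in culture. At 72 h the order had turned for some, with Trim30b at 43.2 ± 6.16 FPKM in M2 → M1 and 17.0 ± 6.38 FPKM in M1 kept (SD, n = 3 each, log2 difference 1.34, adjusted p = 8.65e-10), and Trim30d, Trim30a and Trim34a higher too, where 12.0% of all genes were called (7.32% higher, 4.71% lower). M1 kept cells had by then met the stimuli for 24 h longer, and a fit of these conditions alone gave 0 calls, while leaving out replicate 2 or 3 of either condition gave 2.

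**Figure D4:**
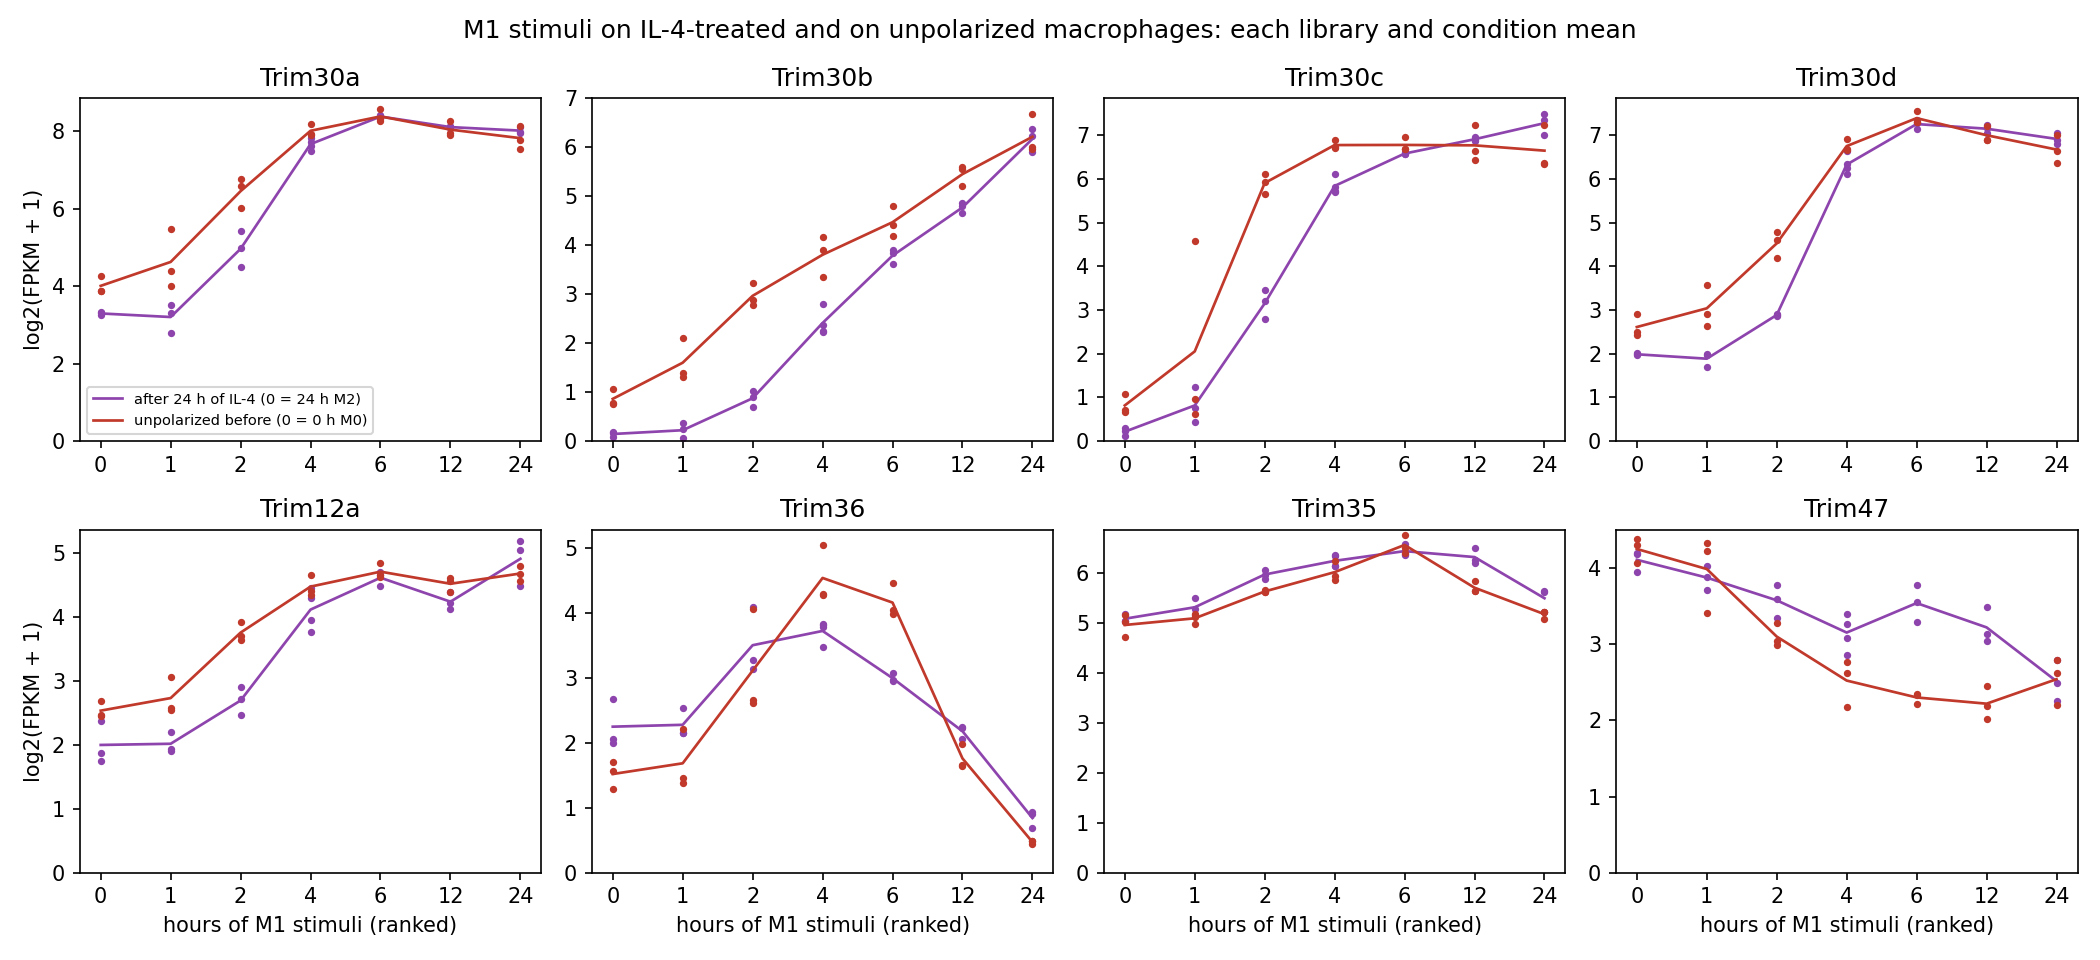
Log2(FPKM + 1) in each library given M1 stimuli after 24 h of IL-4 (M2 → M1) and without it (M1), by hour, in 8 panels (Trim30a, Trim30b, Trim30c, Trim30d, Trim12a, Trim36, Trim35 and Trim47). At 2 h the M2 → M1 points of Trim30c (5.94 to 9.97 FPKM before the logarithm) lie below the M1 points (49.4 to 68.8 FPKM), and by 24 h the panels of the Trim30 genes come together.

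Cells in IL-4 that had first met M1 stimuli differed at 72 h from cells held in IL-4 throughout. In M1 → M2 against M2 kept, 7 members were higher (Trim21, Trim25, Trim30a, Trim30b, Trim30c, Trim30d and Trim34a) and 1 lower (Trim36), where 21.5% of all genes were called (11.8% higher, 9.76% lower). Of the 9 members that reach the floor only with M1 stimuli, 5 were higher and 1 lower. Of the other 14, 2 were higher and 12 not called. Trim30a averaged 23.7 FPKM in M1 → M2 and 8.92 FPKM in M2 kept (log2 difference 1.32), Trim30d 10.97 and 3.71 FPKM (1.33), and Trim36 1.64 and 4.45 FPKM (-1.04). Without replicate 1 of M1 → M2 the count was 5. After removal of IL-4, 3 members (Trim30d, Trim47 and Trim59) were higher and 1 (Trim35) lower in 72 h M2 → M0 than in M2 kept, where 23.6% of all genes were called, but 1 call was left without replicate 2 or without replicate 3 of M2 → M0.

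Over the means of the 48 conditions, the 21 pairs of cluster genes had Pearson correlations of 0.852 to 0.991 and the other 232 member pairs -0.911 to 0.97, the highest of these between Trim21 and Trim30a. These values describe profiles that share libraries, and the close sequence of the cluster genes is a second thing they share. Trim21 and all cluster genes but Trim30a also reach the floor only with M1 stimuli, which in part fixed a common rise.

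Chromatin accessibility was read at the start sites of the members. ATAC-seq held no M0 library later than 0 h and no M1 kept library, so its comparisons also differ in hours of culture. Within 500 bp of annotated starts of the 23 members lay 27 deposited sites, of which 10 were more and 3 less accessible in 24 h M1 than in 0 h M0 (edgeR quasi-likelihood test, adjusted p under 0.05), where 30.2% of all 137586 sites tested were called (16.4% higher, 13.8% lower). Of 22462 sites at the starts of all genes 10.5% were higher and 18.1% lower. The median log2 difference was 0.081 over the 27 sites and -0.091 over all sites. The Trim30c start site had 66.4, 55.8 and 65.2 CPM (counts scaled to the library total) in 24 h M1, against 23.2, 29.3 and 26.8 CPM in 0 h M0 (log2 difference 1.23, adjusted p = 1.28e-12). The Trim12c site had 66.7, 57.5 and 82.4 CPM in 24 h M1, against 33.7, 42.8 and 37.2 CPM in 0 h M0 (log2 difference 0.83, adjusted p = 4.28e-07). Both sites were apart in every library. Sites of Trim56 (log2 difference 0.70), Trim30b (0.64), Trim12a (0.54), Trim14 (0.48), Trim21 (0.40), Trim25 (0.38), Trim30d (0.37) and Trim44 (0.37) were also more accessible, and those of Trim8 (-0.44), Trim3 (-0.40) and a downstream start of Trim36 (-0.36) less. Of the more accessible sites, those of Trim14, Trim25 and Trim44 belong to members that reach the floor without M1 stimuli. Without replicate 1 of 24 h M1 the count of called sites was 7, and with DESeq2 8. Start sites of Trim11, Trim12a, Trim14, Trim35 and that of Trim36 are shared with another annotated gene, and accessibility there belongs to both.

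Trim11, Trim26, Trim30a and Trim34a had RNA that rose in 24 h M1 against 0 h M0 and start sites that were not called. The Trim30a start site had 58.3, 46.3 and 57.2 CPM in 24 h M1, against 40.1, 51 and 44.1 CPM in 0 h M0, overlapping values with a log2 difference of 0.24 that was not called, beside an RNA difference of 3.82 against 0 h M0. Another site, 891 bp from the start (chr7:104463929-104464302), had 11.8, 10.2 and 5.72 CPM in 24 h M1, against 2.14, 1.64 and 0.93 CPM in 0 h M0 (log2 difference 2.59, edgeR adjusted p = 2.75e-10). That site lies outside the 500 bp window and was counted under the 1000 bp alternative, and its counts per library were low, at 38, 79 and 10 in 24 h M1 and 21, 8 and 7 in 0 h M0. The Trim34a start site had 24, 28.6 and 23.5 CPM in 24 h M1, against 22.7, 26.6 and 26.3 CPM in 0 h M0 (log2 difference 0.07, not called).

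**Figure D5:**
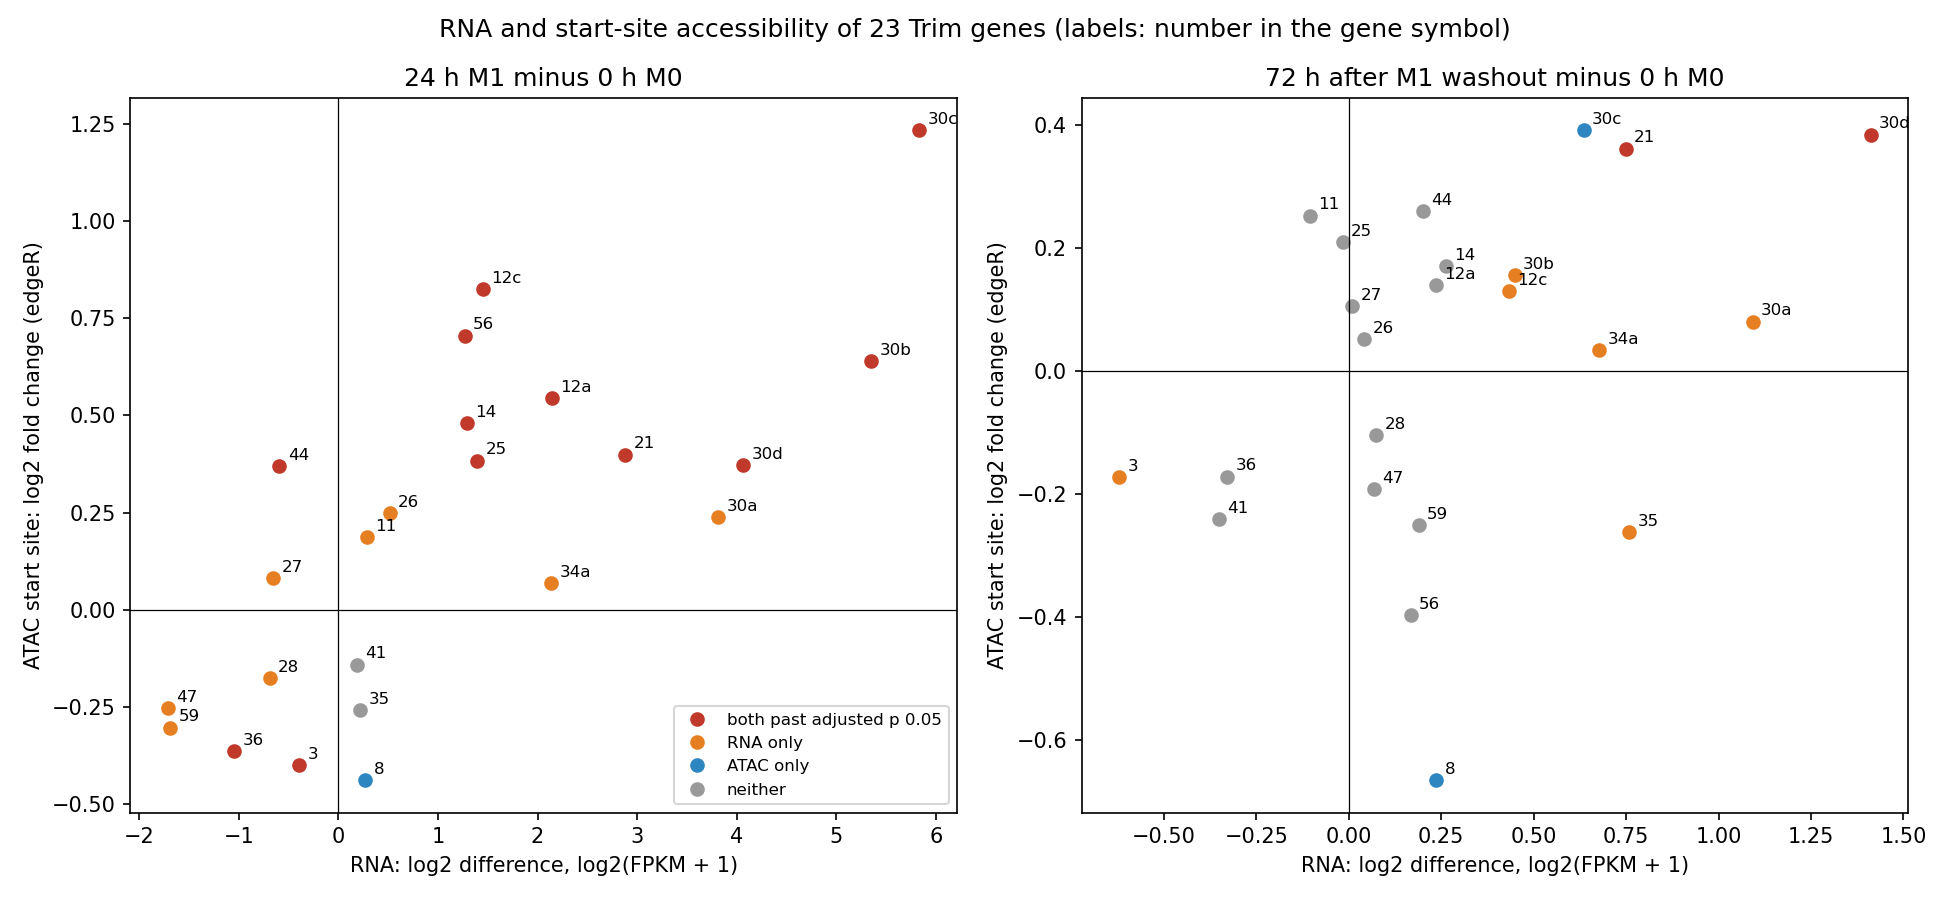
Log2 difference of RNA (x axis) and of accessibility at the start site (y axis) for the 23 members, in 24 h M1 against 0 h M0 and in 72 h M1 → M0 against 0 h M0, each point labelled by the rest of its symbol. Each gene is shown with its start site of the most counts, for Trim36 a downstream start. At 24 h M1 Trim30c lies at the top with an accessibility difference of 1.23, and Trim30a far to the right with 0.24.

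For each gene the start site with the most counts was set beside the RNA. For Trim36 this was the downstream start shared with another gene, and its sites at the upstream start were not called. Across the 23 genes the differences of RNA and of accessibility in 24 h M1 against 0 h M0 had a Pearson correlation of 0.734 and a Spearman correlation of 0.733. Genes are not independent replicates, and both measures share the 0 h M0 label but not libraries. The correlations include the 9 members that reach the floor only with M1 stimuli, whose RNA direction that floor in part fixed. Both measures were called for 12 genes, in the same direction for 11, with Trim44 lower in RNA and higher in accessibility. Of the 12, only Trim3, Trim14, Trim25 and Trim44 reach the floor without M1 stimuli. RNA alone was called for 8 genes, accessibility alone for 1 (Trim8), and neither for 2.

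After 72 h without M1 stimuli, 0 of the 27 sites were more and 5 less accessible than in 24 h M1, where 21.5% of all sites were called (9.93% higher, 11.5% lower) and, of sites at the starts of all genes, 11.4% were higher and 14.7% lower. The Trim56 site had 13.3, 11.5 and 9.78 CPM in 72 h M1 → M0, against 19.9, 28.2 and 24 CPM in 24 h M1 (log2 difference -1.10), and the sites of Trim30c (-0.84), Trim12c (-0.69), Trim30b (-0.48) and Trim12a (-0.40) followed. All 5 genes were also lower in RNA. Without M0 or M1 kept libraries of the same age, the removal of stimuli cannot be told apart here from the wash and the time in culture. Against 0 h M0, 3 sites were more accessible (Trim21 0.36, Trim30c 0.39 and Trim30d 0.38) and 1 less (Trim8), where 18.2% of all sites were called (10.0% higher, 8.14% lower) and, of sites at the starts of all genes, 6.25% were higher and 15.2% lower. The Trim30c site had 35.3, 33.4 and 34.1 CPM in 72 h M1 → M0, against 23.2, 29.3 and 26.8 CPM in 0 h M0, groups that did not overlap. The calls of the 3 higher sites were lost in 5 of the 6 fits that left out 1 library, all but that without replicate 2 of 0 h M0, and with DESeq2. The Trim8 site had 18.3, 18 and 15.1 CPM in 72 h M1 → M0, against 27.2, 30.1 and 25.2 CPM in 0 h M0 (log2 difference -0.66, edgeR adjusted p = 7.04e-05).

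Single-cell libraries, 1 per condition and so without a test, gave the same genes as CPM, a gene's UMIs scaled to the total of its library, with exact Poisson intervals that cover counting error only. Trim30b was at 128 CPM in 24 h M1 (95% interval 120 to 137, 912 UMIs) and at 0.699 CPM in 24 h M0 (4 UMIs), with 21.1 CPM at 6 h of M1, so that it was higher at 24 h than at 6 h here too. Trim30a was at 393 CPM in 6 h M1 and 238 CPM in 24 h M1, against 31.6 CPM in 24 h M0, highest at the earlier hour. Trim36 was at 12.9 CPM in 6 h M1 (interval 10.6 to 15.5, 113 UMIs) and had 0 UMIs in 24 h M1 (interval up to 0.518 CPM), against 1.75 CPM in 24 h M0 (10 UMIs), and it was at 6.31 CPM in 24 h M2. Trim47 was at 4.22 CPM in 24 h M1, against 53.3 CPM in 24 h M0, and Trim28 at 18.1 CPM, against 46.6 CPM. Each pair of libraries shared 6 to 25 cell barcodes among 2446 to 5985 per library.

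Genes that work with these TRIM proteins were read from fixed lists in 24 h M1 against 24 h M0, under the same 10 FPKM floor, where 35.4% of all genes were higher and 25.2% lower. That floor in part fixes the direction of any listed gene that passes it only with M1 stimuli, and such genes were not counted apart. Of 5 measured genes of ISG15 conjugation, a ubiquitin-like tag, 5 were higher, Isg15 at 1092 FPKM in 24 h M1 and 7.00 FPKM in 24 h M0. Of 17 genes of interferon receptors and signalling, 15 were higher and 1 lower. Of 10 genes of RNA and DNA sensing 7 were higher, among them Ddx58 (RIG-I, the target of Trim25) at 112 FPKM in 24 h M1 and 12.1 FPKM in 24 h M0, whereas Mavs, at 18.2 and 18.4 FPKM, was not called. Of 11 measured partners of Trim28 7 were lower and 2 higher, Cbx5 (HP1α) at 3.80 FPKM in 24 h M1 and 11.7 FPKM in 24 h M0. Tripartite proteins with other symbols, Pml and Mefv among them, were higher in 3 of 3, Pml at 73.6 FPKM in 24 h M1 and 16.3 FPKM in 24 h M0. In 24 h M2 against 24 h M0, where 15.1% of all genes were lower and 18.5% higher, the ISG15 genes were lower in 3 of 5. The partners of Trim28 were lower in 2 of 11, a share near that of all genes.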

How the data were processed

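Bulk RNA-seq values were deposited by the authors as log10(FPKM + 1) per gene and library, made with TopHat2 2.0.14 on mm10, Cuffquant and Cuffnorm 2.2.2, from an unstranded kit, with genes under 10 FPKM in every library left out. ATAC-seq counts were deposited as whole read counts in peaks that the authors called with MACS2 2.1.0 on all libraries merged, after duplicate removal with SAMtools 1.9, and counted with bedtools 2.28.0, so sites do not carry replicate support of their own. Single-cell counts were deposited as UMI counts per gene and barcode from Cell Ranger, whose version is not given in the sources used here. These were used without a filter on barcodes and summed per library, since no cell types were compared, and doublets were not called.

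FPKM was recovered from the logarithm, 1 FPKM was added and log2 was taken. limma 3.58.1 in R 4.3.3 fitted 1 mean per condition over all bulk libraries and 8307 genes with a trended prior variance. ATAC sites with more than 10 counts in at least 1 library (137586) were tested with edgeR 4.0.16 (TMM, quasi-likelihood). Calls needed a Benjamini-Hochberg adjusted p under 0.05 over the whole table. The code was tested on simulated data. Replicates are biological per the labels, which name no culture or animal, so p-values measure the spread between these libraries. Per-library values were given for members called with a log2 difference of at least 1 in size in 24 h M1 or 24 h M2 against 24 h M0, and for others that later comparisons turned on, which were chosen after their values were seen. Members and lists were chosen with earlier results of these data known.

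Same-numbered libraries deviated together in most pairwise bulk comparisons (every pair's correlation above 0.1), but not over the M1 course (lowest 0.0839), M0 over time (-0.329), 72 h M1 → M0 against 72 h M0 (-0.16), M2 → M1 against M1 at matched hours (-0.426) or in ATAC-seq (-0.0526 to 0.0301). Alternatives were pseudocounts of 0.1 and 5 FPKM, a mean of at least 5 FPKM, median centring, a replicate block, a fit of the compared conditions alone, leaving out each library, DESeq2 1.42.0 for ATAC counts, no TMM, no count filter and a window of 1000 bp. Promoters came from RefSeq and gene positions from GENCODE on GRCm38.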

Additional observations from a re-analysis of the deposited data

Results flagged for a closer look

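Among groups of 4 libraries, 3 of 46 tested member values (6.52%) had 1 library far from the other 3, and chance alone gives about 1 in 20. Trim30d was at 4.73 FPKM in replicate 4 of 72 h M0, below the other 3 libraries, and 72 h M1 → M0 was compared with these libraries. Trim3 was at 18.3 FPKM in replicate 1 and Trim36 at 10.1 FPKM in replicate 4 of 4 h M2 → M1.

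The M1 effect against M0 of the same age differed between 72 h after the medium change and the first 24 h for 9 members (limma interaction term, adjusted p under 0.05), where 27.6% of all genes were called (12.0% higher, 15.6% lower). The log2 effect was smaller at 72 h for Trim30b (difference -1.82, adjusted p = 5.2e-10), Trim30d (-1.42), Trim30c (-1.16, adjusted p = 0.0497), Trim30a (-1.09), Trim14 (-0.82), Trim56 (-0.81) and Trim21 (-0.60). Trim59 (0.87) was less lowered at 72 h, with log2 effects of -1.45 at 72 h and -2.33 at 24 h. Trim27 (0.69) had effects of 0.10 at 72 h and -0.59 at 24 h.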

How the results depend on the processing

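The fold changes of the 14 members named in 24 h M1 against 24 h M0 kept their direction and their call in all 182 alternatives, and of 209 alternatives on counts of calls 179 stayed within 1.5 times. Counts moved by more in these cases, and beyond the smaller samples or the stricter setting itself the cause was not tested. M0 over time, with 3 members called, gave 6 with the replicate block, 7 in a fit of those conditions alone and 1 to 7 with a replicate left out. The M2 course, with 17 called, gave 11 to 20 with a replicate left out. In 24 h M2 the count of 14 against 24 h M0 was 9 to 13 and the count of 11 against 0 h M0 was 6 to 12 with single libraries left out. The 7 members above 72 h M0 after the removal of M1 stimuli were 11 without replicate 1 in every condition. The 4 calls of 72 h M2 → M0 against M2 kept became 2 with 5 FPKM added and 1 to 4 with single libraries left out. The 4 calls of 72 h M2 → M1 against M1 kept became 2 with 0.1 FPKM added, 0 in a fit of those conditions alone and 2 to 4 with single libraries left out. The 8 calls of 72 h M1 → M2 against M2 kept were 5 to 8, and the 10 of IL-4 against base media after M1 were 2 to 11, with libraries left out. ATAC sites called in 24 h M1 (13) were 8 with DESeq2 and 7 to 13 with single libraries left out, and those in 72 h M1 → M0 against 0 h M0 (4) were 1 with DESeq2 and 1 to 4.

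With the replicate block, where numbers pair the libraries, 24 h M1 against 24 h M0 kept 20 calls, 24 h M2 against 24 h M0 gave 15 (Trim47 added) and the M2 course 20, IL-4 against base media after M1 gave 12, 24 h M1 → M0 against M1 kept 16, and 72 h M2 → M0 against M2 kept 5. In comparisons whose libraries share only a number, the block gave 23 for the M1 course, 9 for 72 h M1 → M0 against 72 h M0 (Trim36 and Trim12a added), 20 for M2 → M1 against M1 at matched hours and 3 ATAC sites for 72 h M1 → M0 against 0 h M0 (Trim21 lost). Replicate 1 lay at one end of the first component of within-condition variation (32.6% of that variance) in 45 of 48 conditions. The ATAC library with the fewest counts in sites was replicate 3 of 24 h M1, with 1730488.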
